A study of Homo sapiens with 10 samples.

Results

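SLC6A15, a sodium-coupled transporter of branched-chain and other neutral amino acids, was read together with 9 further carriers of amino acids at the plasma membrane. The set held SLC6A15, SLC6A14, SLC7A5, SLC7A11, SLC3A2, SLC1A4, SLC1A5, SLC7A8, SLC38A1 and SLC38A2, which are 10 of the 58735 genes in the count table, and each symbol matched 1 gene. SLC6A15 was picked because its counts were far lower in both DUSP1 clones than in the control, so its values against the control are a description and carry no test. The other 9 carriers were taken from their families and functions, but with earlier results of these data known. Their tests are therefore not fully independent of that choice.

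Amino acid carriers share the work of feeding a cell. Sodium-coupled symporters of the SLC6 and SLC38 families draw neutral amino acids inwards, and exchangers, among them SLC1A4, SLC1A5 and the heterodimers, trade those amino acids for others. In the heterodimers a catalytic SLC7 subunit pairs with the glycoprotein SLC3A2, the CD98 heavy chain: SLC7A5 (LAT1) and SLC7A8 (LAT2) move large neutral amino acids, and SLC7A11 (xCT) brings in cystine for glutathione in exchange for glutamate. When amino acids run short, the kinase GCN2 raises translation of the transcription factor ATF4, and ATF4 induces many carriers, biosynthetic enzymes and aminoacyl-tRNA synthetases.

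RNA was sequenced from A253 cells, an established human line from a salivary gland tumour of the squamous cell carcinoma type, in 3 groups of 2 libraries grown in DMEM with serum. Every group carried Cas9 and guide RNA from lentiviral vectors. Control cells carried a guide against dTomato, a gene that human cells lack, and Cl1 and Cl10 were single-cell clones in which a pair of guides removed exon 2 of DUSP1. The labels call both clones knockouts, whereas the study describes the deletion as heterozygous. It also reports no DUSP1 protein in either clone, and proposes that inactivating mutations in the remaining alleles could be the reason. Each DUSP1 line is 1 clone, so a trait of the clone and an effect of the deletion cannot be told apart. No label says that the 2 libraries of a group came from separate cultures, so p-values measure only the spread between these libraries. Both clones were compared with the same 2 control libraries, and a deviation of a control library therefore enters both comparisons.

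Library totals ran from 47016495 to 70986593 counts. Values below are normalized counts, that is, counts scaled by TMM factors to the mean library total. DUSP1 (ENSG00000120129), a phosphatase of MAP kinases, had 744.4 and 635.4 normalized counts in the control libraries, 304.0 and 353.7 in Cl1, and 495.2 and 415.2 in Cl10. Every clone library was under both controls, and log2 fold changes stood at -1.07 in Cl1 (standard error 0.149, adjusted p = 0.000292, edgeR) and -0.59 in Cl10 (standard error 0.134, adjusted p = 0.0113, edgeR). The count covers the whole gene and not exon 2 alone. The 6 squamous markers (KRT5, KRT14, TP63, EPCAM, CDH1 and KRT6A) had over 10 counts in every library and summed to between 646240 and 758640 normalized counts, while none of the 4 acinar cell markers of salivary gland passed 10 counts in any library. Of the 6 fibroblast markers 2 had over 10 counts, and their sum was 2549.2 and 2866 normalized counts in the control, 2631.4 and 2801.6 in Cl1, and 1715.4 and 1811.4 in Cl10. Leukocyte markers summed to 20.5 normalized counts at most, and endothelial markers to 253.8 and 157 in the control, 327 and 446.2 in Cl1, and 238.7 and 184.2 in Cl10. VWF, the main one, rose in Cl1 (log2 fold change 0.93, adjusted p = 0.0102), and CDH5 had over 10 counts in Cl10 alone. The part of these in the results was not tested.

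SLC6A15 (ENSG00000072041) lies on the minus strand of chromosome 12 at positions 84859491 to 84913629 of hg38. Its raw counts were 1197 and 875 in the control libraries, 109 and 81 in Cl1, and 29 and 53 in Cl10. After scaling, the control libraries held 1012.6 and 940.8 normalized counts, Cl1 held 93.1 and 94.9, and Cl10 held 28.5 and 63.4. The 3 groups did not overlap, with the control far above both clones and Cl10 below Cl1. Group means were 977 ± 50.8, 94.0 ± 1.28 and 46.0 ± 24.7 (SD, n = 2 libraries each), so that Cl1 kept 9.62% of the control level and Cl10 kept 4.7%. These are levels 10.4-fold and 21.3-fold below the control, and the fitted log2 fold changes were -3.38 (standard error 0.154) and -4.44 (standard error 0.265). The value in Cl10 ran from -5.09 without Cl10 replicate 2 to -3.93 without Cl10 replicate 1, the library with the lower level. The clones themselves also differed. The gene was not chosen on this contrast, but its choice used the same clone counts, so the test is not independent of it. Cl10 lay below Cl1 by a log2 fold change of -1.06 (95% interval -1.75 to -0.37, adjusted p = 0.0147, edgeR's quasi-likelihood test). That call rested on Cl10 replicate 1, since without it the value was -0.56 with an adjusted p of 0.174. In RNA from whole cultures, fewer cells that express a gene and less of its RNA per cell cannot be told apart.

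SLC6A14 (ENSG00000268104), a carrier of neutral and cationic amino acids from the same family on chromosome X (116436606 to 116461458), had no count in any of the 6 libraries. A count of 0 allows up to 3 counts, which corresponds to between 2.54 and 3.59 normalized counts in these libraries. It was not tested and no fold is given. The near relative SLC6A17, named after its values were seen, had 814.6 and 581.7 normalized counts in the control, 783.8 and 650.0 in Cl1, and 935.3 and 1012.2 in Cl10. SLC6A17 rose in Cl10 by 0.48 on the log2 scale (adjusted p = 0.0474), and its value in Cl1 was 0.04 (95% interval -0.32 to 0.40). Other SLC6 carriers differed by clone. SLC6A20, a proline carrier also named after its values were seen, had 39.8 and 62.4 normalized counts in the control, 18.8 and 9.37 in Cl1, and 35.4 and 32.3 in Cl10, and it fell in Cl1 (log2 fold change -1.79, adjusted p = 0.00786) but not past the threshold in Cl10 (-0.57, adjusted p = 0.186). The glycine carrier SLC6A9, chosen in the same way, fell in Cl1 (-0.69, adjusted p = 0.00214) and stood at 0.19 in Cl10 (adjusted p = 0.215). SLC6A6, also named after its values were seen, rose in Cl1 (0.44, adjusted p = 0.0346, edgeR) and stood at -0.18 in Cl10 (adjusted p = 0.28). At low counts SLC6A7 rose in Cl10 (2.16, adjusted p = 0.0243, edgeR), and it was not tested in Cl1.

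**Figure D1:**
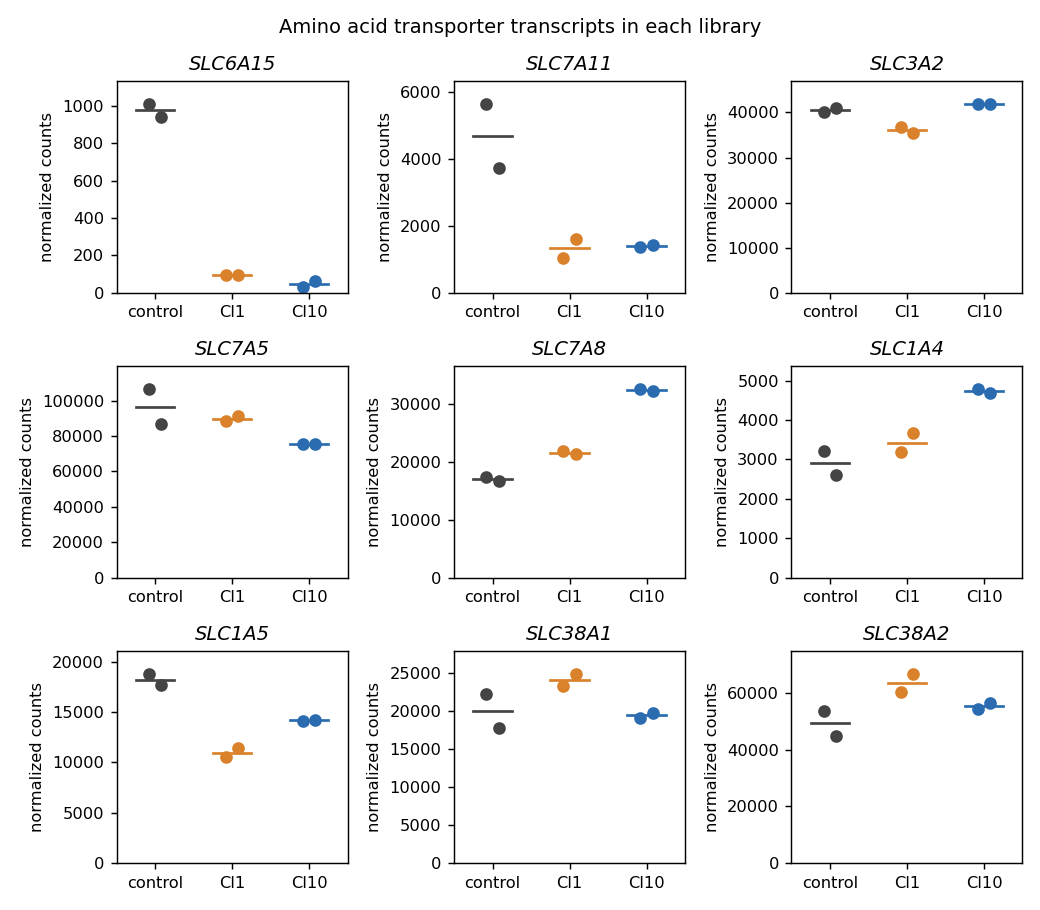
Normalized counts (vertical axis, linear, from 0) of the 9 detected carriers in each library, with control, Cl1 and Cl10 along the horizontal axis; points are the 2 libraries of a group and lines are their means. SLC6A15 and SLC7A11 stand apart, with every clone library at 94.9 or less and 1612.8 or less against at least 940.8 and 3740 in the control, whereas the other panels show smaller shifts.

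Genes along the same stretch of chromosome 12 were examined beside SLC6A15. Its 50 nearest tested genes reached 8.92 Mb to either side, and the median of their log2 fold changes was -0.18 for Cl1 and -0.08 for Cl10. After subtraction of these medians SLC6A15 still stood at -3.20 and -4.36. Of the 50 neighbours, 3 were called lower and 1 higher in Cl1, and 4 lower and 4 higher in Cl10. Over all genes 3.27% were called lower and 4.27% higher in Cl1, and 7.44% and 5.98% in Cl10. Here called means that the gene passed at an adjusted p under 0.05 with a log2 fold change beyond 1 in size. The nearest tested gene, LRRIQ1 (chr12:85036314-85264457), 0.264 Mb away and named after its values were seen, had only 13 and 14 raw counts in the control, 2 and 0 in Cl1, and 0 and 0 in Cl10. These counts are so low that neither a fold nor a test is given. The next neighbours, RASSF9 and TMTC2, differed far less, with log2 fold changes of -0.17 and -0.80 in Cl1 and -0.10 and -0.40 in Cl10.

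**Figure D2:**
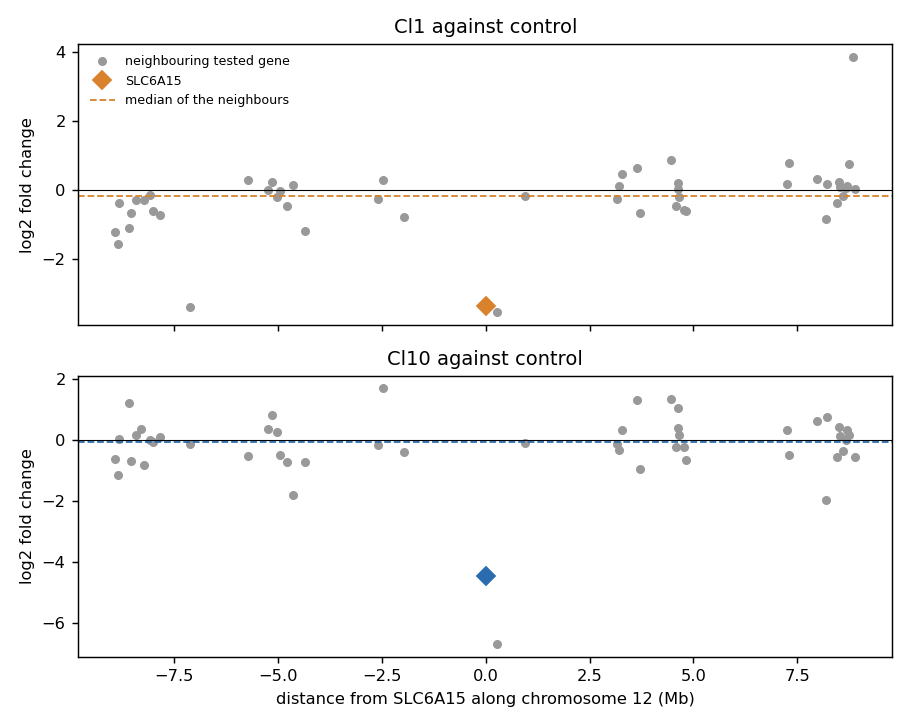
Log2 fold change against control (vertical axis) of the 50 tested genes nearest to SLC6A15 (grey points) and of SLC6A15 (diamond) by distance along chromosome 12 in Mb (horizontal axis), for Cl1 above and Cl10 below; the dashed line is the median of the neighbours. The diamonds sit at -3.38 and -4.44 while the medians are -0.18 and -0.08; the low point beside each diamond is LRRIQ1, whose fitted value depends on the prior count because some of its libraries are at 0.

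Among the heterodimeric exchangers the cystine carrier fell and its partner did not pass the test. SLC7A11 (ENSG00000151012, minus strand of chromosome 4, 138164097 to 138242349) had 5662.6 and 3740.4 normalized counts in the control, 1052.7 and 1612.8 in Cl1, and 1381.3 and 1438.1 in Cl10. The clone libraries overlapped one another and all lay below the lower control library, although the 2 control libraries were themselves far apart. The means of 4702 ± 1359, 1333 ± 396 and 1410 ± 40.2 (SD, n = 2) put Cl1 at 28.3% of the control, 3.53-fold lower, and Cl10 3.34-fold lower. On the log2 scale SLC7A11 fell by 1.82 in Cl1 (standard error 0.206, adjusted p = 6.35e-05, edgeR) and by 1.73 in Cl10 (standard error 0.184, adjusted p = 0.000545). Between the clones the value was 0.09 (95% interval -0.22 to 0.40, adjusted p = 0.617), and its sign depended on Cl1 replicate 1, since it was -0.20 without that library (adjusted p = 0.0143) and 0.41 without Cl1 replicate 2.

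The antisense gene SLC7A11-AS1 overlaps one end of SLC7A11 and had 82 and 17 raw counts in the control, 10 and 11 in Cl1, and 23 and 15 in Cl10. On the log2 scale it fell by 2.09 in Cl1 (standard error 0.586, adjusted p = 0.0204) and stood at -1.13 in Cl10 (standard error 0.604, adjusted p = 0.17). The sources do not state whether reads were counted by strand, so reads of the antisense gene in the shared stretch could have been assigned to either gene. At most 82 counts were credited to SLC7A11-AS1, against 6694 to SLC7A11 in the same library. These totals do not give the number of reads in the shared stretch, and its effect was not tested.

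SLC3A2 (ENSG00000168003, chromosome 11, 62856004 to 62888880), the heavy chain that all of these exchangers need, had 40118 and 40940 normalized counts in the control, 36885 and 35401 in Cl1, and 41949 and 41924 in Cl10. Neither value passed: the log2 fold changes were -0.16 for Cl1 (95% interval -0.44 to 0.12, adjusted p = 0.388) and 0.05 for Cl10 (95% interval -0.14 to 0.25, adjusted p = 0.628). Both intervals leave out a change as large as that of SLC7A11. The 50 genes nearest to SLC3A2 had median log2 fold changes of 0.31 and 0.49, and relative to those medians SLC3A2 stood at -0.47 and -0.44.

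SLC7A5 (ENSG00000103257, chromosome 16, 87830023 to 87869507) was among the most abundant carriers, with 106593 and 86529 normalized counts in the control, 88454 and 91246 in Cl1, and 75470 and 75492 in Cl10. Cl1 lay within the range of the control libraries and Cl10 lay below both. The log2 fold change in Cl1 was -0.10 (95% interval -0.43 to 0.23, adjusted p = 0.667). In Cl10 it was -0.35 (standard error 0.117, adjusted p = 0.0478), a call that was lost with DESeq2's size factors (adjusted p = 0.0509) and without Cl10 replicate 1 or 2 (adjusted p = 0.321 and 0.324).

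SLC7A8 (ENSG00000092068, chromosome 14, 23125295 to 23183674), the other large neutral amino acid exchanger, moved the opposite way. It had 17459 and 16709 normalized counts in the control, 21892 and 21351 in Cl1, and 32683 and 32275 in Cl10, with no overlap between any pair of groups. SLC7A8 rose in Cl10 to 190% of the control (log2 fold change 0.93, standard error 0.0833, adjusted p = 0.000281). In Cl1 it stood at 127% of the control with a log2 fold change of 0.34 (standard error 0.121), which narrowly missed the threshold in edgeR (adjusted p = 0.0569) and passed it in DESeq2 (adjusted p = 0.0158).

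The 2 members of the SLC1 family, exchangers of alanine, serine and cysteine known as ASCT1 (SLC1A4) and ASCT2 (SLC1A5), diverged from one another. SLC1A5 (ENSG00000105281, chromosome 19, 46774883 to 46788594), which also carries glutamine, had 18808 and 17703 normalized counts in the control, 10533 and 11406 in Cl1, and 14137 and 14269 in Cl10. The 3 groups did not overlap, and both clones were below the control. SLC1A5 fell to 60.1% of the control in Cl1 (log2 fold change -0.73, standard error 0.122, adjusted p = 0.000983) and to 77.8% in Cl10 (-0.36, standard error 0.0829, adjusted p = 0.0128). Without Cl10 replicate 1 or 2 the adjusted p in Cl10 became 0.259 and 0.234.

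SLC1A4 (ENSG00000115902, chromosome 2, 64988477 to 65023865) had 3209 and 2594 normalized counts in the control, 3180.4 and 3675 in Cl1, and 4791 and 4684 in Cl10. Cl1 overlapped the control and Cl10 lay above both. SLC1A4 rose in Cl10 to 163% of the control (log2 fold change 0.71, standard error 0.112, adjusted p = 0.00269), whereas the value in Cl1 was 0.24 (95% interval -0.04 to 0.52, adjusted p = 0.194).

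The sodium-coupled neutral amino acid transporters SLC38A1 and SLC38A2, suppliers of glutamine and alanine that lie side by side on chromosome 12, did not pass the test in either clone. SLC38A1 (ENSG00000111371, 46183063 to 46270017) had 22268 and 17777 normalized counts in the control, 23255 and 24882 in Cl1, and 19149 and 19738 in Cl10. Its log2 fold changes were 0.27 (95% interval -0.03 to 0.57, adjusted p = 0.184) and -0.04 (95% interval -0.32 to 0.24, adjusted p = 0.823), and the spread between the control libraries was as large as the gaps to the clones. SLC38A2 (ENSG00000134294, 46358188 to 46372773) had 53773 and 44966 normalized counts in the control, 60444 and 66847 in Cl1, and 54580 and 56693 in Cl10. All clone libraries lay above the control, by 0.37 on the log2 scale in Cl1 (adjusted p = 0.0824 in edgeR and 0.0234 in DESeq2) and 0.18 in Cl10 (95% interval -0.08 to 0.44, adjusted p = 0.23).

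**Figure D3:**
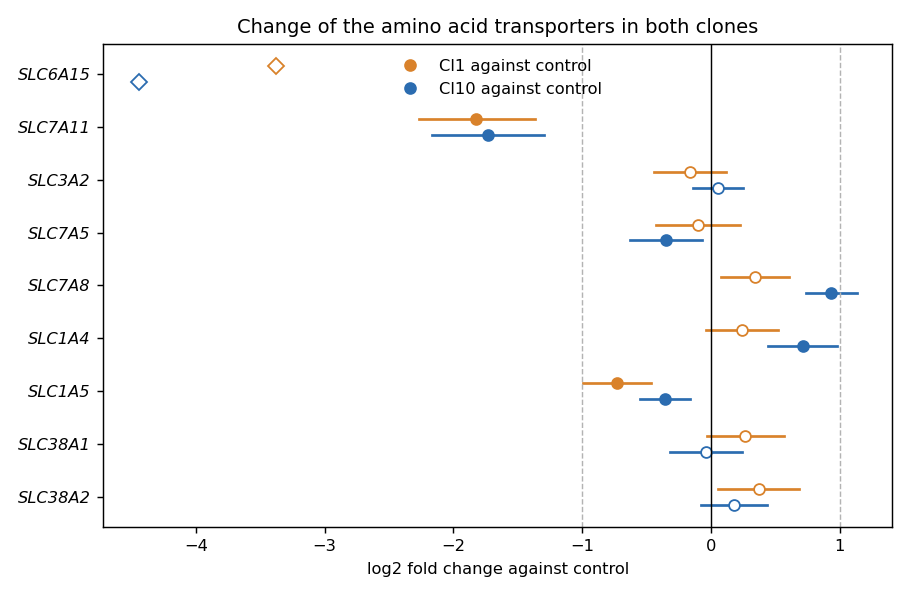
Log2 fold change against control (horizontal axis) of the 9 tested carriers in Cl1 (orange) and Cl10 (blue), with 95% intervals; filled points have an adjusted p under 0.05, dashed lines mark a log2 fold change of 1 in either direction, and the diamonds of SLC6A15 carry no test or interval since the gene was chosen on these values. SLC7A11 lies at -1.82 and -1.73, SLC7A8 and SLC1A4 lie at 0.93 and 0.71 in Cl10, and the other carriers lie between -0.73 and 0.37.

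Counted without SLC6A15, 8 of the carriers were tested against the control. In Cl1, 2 of the 8 passed an adjusted p under 0.05, SLC7A11 and SLC1A5, both lower, beside 25.1% of the 20153 genes tested. In Cl10, 5 of the 8 passed, with SLC7A8 and SLC1A4 higher and SLC7A11, SLC1A5 and SLC7A5 lower, beside 42.5% of the 19875 genes tested. SLC7A11 was the only one of the 8 called in either clone, against 7.54% and 13.4% of all genes (3.27% and 7.44% called lower, 4.27% and 5.98% called higher). The median log2 fold change of the 8 was 0.07 in Cl1 and 0.01 in Cl10, against -0.01 over all genes in both, with carriers on either side of 0. The counts depended on single libraries: 6 of the 8 passed in Cl1 without control replicate 1, and 3 of the 8 passed in Cl10 without Cl10 replicate 1 and likewise without Cl10 replicate 2.

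Levels of different carriers were compared per kilobase of exon of the canonical transcript. In the control SLC3A2 (21500) and SLC7A5 (21190) led with closely similar normalized counts per kilobase, and SLC38A2 (10300), SLC1A5 (6334), SLC7A8 (4033) and SLC38A1 (2473) followed. SLC1A4 (636), SLC7A11 (487.5) and SLC6A15 (203.5) came far below. The lead of SLC3A2 depended on the length used, since with all annotated exons, a choice added after the data were seen, it was 6341 per kilobase and ranked below SLC7A5 and SLC38A2, and SLC7A11 passed above SLC1A4. SLC7A8 and SLC1A5 exchanged places between the groups, with 5104 against 3806 normalized counts per kilobase in Cl1 and 7667 against 4928 in Cl10, in the opposite order to the control. Under both lengths SLC6A15 was the lowest of the detected carriers, at 19.58 per kilobase in Cl1 and 9.57 in Cl10.

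Tested directly against one another, the clones differed in most carriers. Of the 9 tested, 8 passed, 4 higher and 4 lower in Cl10, beside 49.0% of the 19818 genes tested (24.9% higher, 24.1% lower). The 8 include SLC6A15, which was chosen with the use of these clone counts. SLC7A8 (log2 fold change 0.59, adjusted p = 5.65e-06), SLC1A4 (0.47, adjusted p = 0.000128), SLC1A5 (0.38, adjusted p = 0.000285) and SLC3A2 (0.22, adjusted p = 0.0106) were higher in Cl10 than in Cl1. SLC6A15, SLC38A1 (-0.30, adjusted p = 0.00153), SLC7A5 (-0.25, adjusted p = 0.00602) and SLC38A2 (-0.19, adjusted p = 0.0375) were lower. SLC6A15 was the only one called, against 10.8% of all genes (4.47% higher, 6.28% lower), and 3 of the 9 passed without Cl10 replicate 1 and 5 without Cl10 replicate 2.

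A further 40 amino acid carriers were listed by family, of which 24 were tested in Cl1 and 26 in Cl10. In Cl1, 5 were higher and 4 lower, and in Cl10, 9 were higher and 4 lower, against 12.4% of all genes higher and 12.8% lower in Cl1 and 20.6% and 21.8% in Cl10. The medians of their log2 fold changes were 0.02 and 0.05. Of the 23 tested in both comparisons, 3 were higher in both and 2 lower in both, or 13.0% and 8.7%, beside 7.14% and 7.9% of all genes.

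SLC1A3, a glutamate and aspartate carrier best known from glia, had 1725 and 1786 normalized counts in the control, 4618 and 5436 in Cl1, and 10979 and 11075 in Cl10. The groups rose in steps without overlap, and the log2 fold changes were 1.52 (adjusted p = 3.02e-06) and 2.66 (adjusted p = 1.29e-05). SLC7A1, the main importer of arginine and lysine, had 12171 and 9181 normalized counts in the control, 18366 and 19748 in Cl1, and 24644 and 24475 in Cl10. It too rose in both clones, by log2 fold changes of 0.84 (adjusted p = 0.00133) and 1.21 (adjusted p = 0.000695).

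SLC43A1, a facilitative carrier of large neutral amino acids, fell from 335 and 277.4 normalized counts in the control to 80.3 and 142.9 in Cl1 and 58.0 and 34.7 in Cl10 (log2 fold changes -1.48 and -2.70, adjusted p = 0.000834 and 0.0003). Its 50 nearest genes had positive medians of 0.48 and 0.60, and relative to them SLC43A1 stood at -1.96 and -3.30. SLC7A2, a second carrier of cationic amino acids, fell at lower counts, with 70.2 and 58.1 in the control, 13.7 and 15.2 in Cl1, and 38.3 and 35.9 in Cl10 (log2 fold changes -2.15 and -0.79, adjusted p = 0.000728 and 0.0412). The carriers that fell and those that rose thus included members of the same cationic amino acid group.

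Genes of the amino acid stress response, the set that ATF4 and its partners govern, were lower in both clones. This list, like the other lists here, was written with earlier results of these data known. Its shares are therefore a description and not independent support. All 28 listed genes were tested. In Cl1, 22 fell and 1 rose, and in Cl10, 22 fell and 2 rose, where 12.8% and 21.8% of all genes were lower. Median log2 fold changes were -0.72 for Cl1 and -0.91 for Cl10, against -0.01 over all genes in both. In both clones 19 of the 28 (67.9%) were lower, beside 7.9% of the 19466 genes tested in both, and this count lay between 14 and 21 when 1 library at a time was left out.

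The biosynthetic and regulatory genes called lower in both clones included several that ATF4 is known to induce. ASNS, which makes asparagine, had 983 and 729 normalized counts in the control, 197.2 and 351.4 in Cl1, and 280.0 and 270.4 in Cl10 (log2 fold changes -1.66 and -1.63, adjusted p = 0.000268 and 0.000403). CHAC1, which breaks down glutathione, had 1831 and 1543, 339 and 486.1, and 399.9 and 461.8 normalized counts in the same order (-2.04 and -1.97, adjusted p = 4.17e-06 and 9.96e-05). In both genes every clone library was below both control libraries and the clones overlapped.

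PSAT1, of serine synthesis, fell by log2 fold changes of -1.18 and -1.05 in Cl1 and Cl10. TRIB3, a pseudokinase that restrains the response, fell by -1.10 and -1.42. The transcription factor DDIT3 (CHOP) fell by -1.66 and -2.40, or by -1.44 and -1.60 relative to the median of its 50 nearest genes, STC2 by -1.44 and -1.54, and the secreted factor GDF15 by -2.01 and -3.92. NUPR1, a stress-induced nuclear protein, went the other way, at 256.3 and 262.3 normalized counts in the control, 412.4 and 629 in Cl1, and 766.3 and 719.1 in Cl10 (log2 fold changes 1.00 and 1.52, adjusted p = 0.00241 and 0.000134). The value in Cl1 lay at the fold change limit.

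The transcript of ATF4 itself, named after its values were seen, had 25785 and 27883 normalized counts in the control, 21177 and 21919 in Cl1, and 12133 and 11814 in Cl10. It fell in Cl10 (log2 fold change -1.16, adjusted p = 0.00016), but stood at only -0.41 relative to the median of its 50 nearest genes. In Cl1 it was -0.31 and missed the threshold in edgeR (adjusted p = 0.0867). ATF4 is regulated largely through translation, which RNA counts do not measure.

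**Figure D4:**
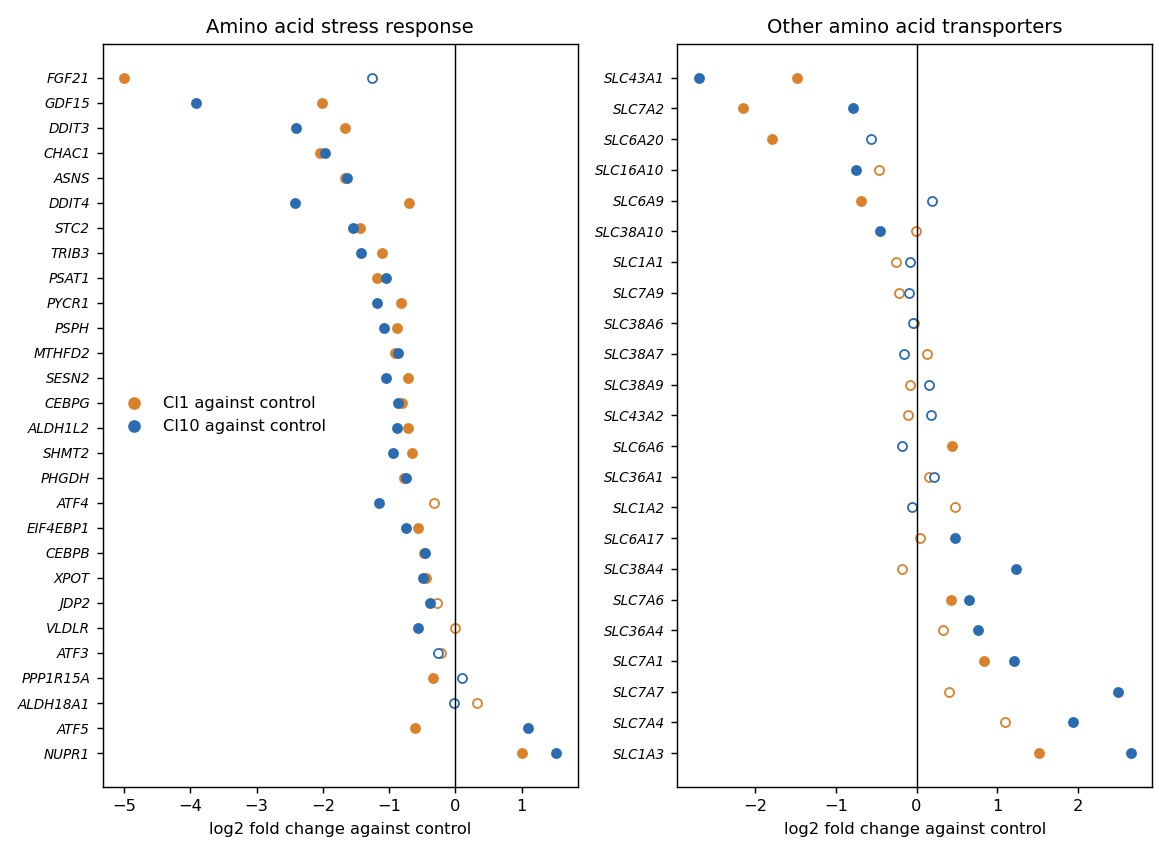
Log2 fold change against control (horizontal axis) of the amino acid stress response genes (left, 28 genes) and the further amino acid carriers tested in both clones (right, 23 genes), Cl1 in orange and Cl10 in blue; filled points have an adjusted p under 0.05. Points on the left lie mostly below 0, with medians of -0.72 and -0.91, while those on the right spread to either side, with SLC43A1 at -1.48 and -2.70 and SLC1A3 at 1.52 and 2.66; genes with some libraries at or near 0 counts, such as FGF21, have fitted values that depend on the prior count.

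Start-site windows of the carriers were searched for the C/EBP-ATF response element through which ATF4 acts, because many genes of the ATF4 response were lower in both clones. Windows came from RefSeq (GRCh38.p14) and ran from 250 bases before to 50 bases after an annotated start. Of the 10 carriers 8 matched, with 17 windows. SLC6A15 and SLC7A11 had no window and were not searched for any motif. The letters searched were TGATGNAA on both strands. A match was present in 4 of the 8 carriers, in 6 of 22 stress response genes and in 7 of 16 cytosolic aminoacyl-tRNA synthetases with windows, beside 4.46% of 27305 genes overall. Genes with more windows have more places for a match. By window it was 4 of 17 for the carriers, beside 3.62% of all 35116 windows. In each of these 4 carriers the match lay within the gene positions given above, so it belongs to a start inside the gene. Each stretch below is 30 bases on the strand of the gene, 5′ to 3′, with the match in capitals, and the carriers shown differ in their response.
SLC1A4, chr2:64989381-64989410, plus strand: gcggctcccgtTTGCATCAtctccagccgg
SLC1A5, chr19:46784893-46784922, minus strand: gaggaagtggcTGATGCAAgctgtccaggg
SLC38A1, chr12:46266502-46266531, minus strand: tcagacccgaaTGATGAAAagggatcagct
SLC3A2, chr11:62881719-62881748, plus strand: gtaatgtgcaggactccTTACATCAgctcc
SLC1A3, chr5:36596357-36596386, plus strand: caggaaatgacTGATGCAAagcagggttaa
SLC7A1, chr13:29595663-29595692, minus strand: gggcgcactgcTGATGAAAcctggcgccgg
ASNS, chr7:97872458-97872487, minus strand: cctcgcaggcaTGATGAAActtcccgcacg
CHAC1, chr15:40953251-40953280, plus strand: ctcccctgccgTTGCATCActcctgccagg
Of the genes shown, ASNS, CHAC1 and SLC1A5 fell in both clones, SLC1A3 and SLC7A1 rose in both, SLC1A4 rose in Cl10, and SLC3A2 and SLC38A1 passed in neither. The other stress response genes with a match are not shown. Of these CEBPG fell in both clones, FGF21 in Cl1 at low counts and JDP2 in Cl10, and ATF3 passed in neither. A match to these letters therefore stood in genes of either direction, and it is a description of the sequence, not evidence of binding.

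The same windows were searched for 3 more motifs. The antioxidant response element TGACNNNGC was found in SLC7A5, SLC3A2 and SLC1A5, which is 3 of the 8 carriers, beside 16.1% of all genes. The AP-1 letters TGANTCA, which can share bases with the antioxidant element as they do at SLC3A2, stood in 4 of the 8 carriers beside 9.37%, and the E-box CACGTG in 3 of the 8 beside 8.77%. The carriers with an AP-1 match were SLC6A14, SLC3A2, SLC7A8 and SLC38A1.

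Cytosolic aminoacyl-tRNA synthetases, which load amino acids onto tRNA, included more genes that fell than rose. Of 20 tested, 8 fell and 1 rose in Cl1 and 12 fell and 2 rose in Cl10, with medians of -0.16 and -0.30, where 12.8% of all genes fell and 12.4% rose in Cl1 and 21.8% and 20.6% in Cl10. In both clones 8 of the 20 fell (40.0%), beside 7.9% of all genes. The serine, glycine, methionine and tyrosine enzymes ranked highest by the smaller of their 2 changes, with the tryptophan enzyme WARS1 (-0.61 and -1.15, named after its values were seen) next and nearly level with YARS1. SARS1 fell by log2 fold changes of -0.74 and -0.90, GARS1 by -0.68 and -1.70, MARS1 by -0.65 and -1.06, and YARS1 by -0.62 and -0.63. MARS1 and DDIT3 overlap at one end on opposite strands, so some of their reads could have been assigned to either gene. None of the synthetases was called in Cl1, and 3 of the 20 were called lower in Cl10 (GARS1, MARS1 and WARS1). Over all genes 3.27% were called lower in Cl1 and 7.44% in Cl10. Without Cl1 replicate 1 a single synthetase passed in Cl1, and without Cl10 replicate 1 or 2 the number in Cl10 was 7 and 8.

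Cystine and glutathione metabolism, the pathway that SLC7A11 feeds, was mixed. Of 17 tested genes, 3 were higher and 5 lower in Cl1, and 4 were higher and 9 lower in Cl10, with medians of -0.09 and -0.34. Over all genes 12.4% were higher and 12.8% lower in Cl1, and 20.6% and 21.8% in Cl10. GCLC, the catalytic subunit of the rate-limiting step of glutathione synthesis, fell from 1713 and 1532 normalized counts to 1019 and 1038 in Cl1 and 1179 and 1305 in Cl10 (log2 fold changes -0.66 and -0.38, adjusted p = 0.00136 and 0.0196). TXNRD1, a thioredoxin reductase, fell by -0.60 and -0.72. GSR, which regenerates glutathione, rose by 0.83 and 0.66. CHAC1, with log2 fold changes of -2.04 and -1.97, was counted in the stress response list and not in this one.

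GGT6, of the gamma-glutamyltransferase family, had 31 and 6 raw counts in the control against 281 and 267 in Cl1 and 91 and 90 in Cl10. It rose by log2 fold changes of 3.99 (standard error 0.364, adjusted p = 1.02e-05) and 2.52 (standard error 0.469, adjusted p = 0.00525) from a level at which the control libraries differed widely. The number of genes in the pathway that passed dropped to 5 in Cl1 without Cl1 replicate 1 and to 7 in Cl10 without Cl10 replicate 1.

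Among enzymes of amino acid catabolism, 2 of 23 tested genes rose and 7 fell in Cl1, and 5 rose and 9 fell in Cl10, with medians of -0.13 and -0.12, beside 12.4% and 12.8% of all genes in Cl1 and 20.6% and 21.8% in Cl10. The alanine aminotransferases parted: GPT rose by log2 fold changes of 0.93 and 0.84 and GPT2, the mitochondrial form, fell by -0.88 and -0.60. ARG2, an arginase, fell by -1.39 and -0.42, and KYNU, of tryptophan breakdown, by -0.49 and -1.85. Without Cl1 replicate 1 or 2, 5 genes passed in Cl1, without control replicate 2 the number was 14, and in Cl10 it was 6 and 7 without Cl10 replicate 1 and 2.

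Few genes of amino acid sensing by mTORC1 passed in Cl1. Of 32 tested, 2 rose and 2 fell in Cl1, or 12.5% beside 25.1% of all genes, and 9 rose and 7 fell in Cl10, where 42.5% of all genes passed, with medians of 0.00 and 0.08. The 2 that rose in both were SESN3, a sestrin (0.49 and 0.45), and BMT2, also called SAMTOR, a sensor of S-adenosylmethionine (0.53 and 0.32). Another sestrin, SESN2, was counted in the stress response list and fell in both (-0.71 and -1.05, adjusted p = 0.00242 and 0.000801, edgeR). The count in Cl1 ranged from 1 without Cl1 replicate 2 to 14 without control replicate 1, with 2 without Cl1 replicate 1 and 7 without control replicate 2, and that in Cl10 was 6 and 5 without Cl10 replicate 1 and 2.

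Genes whose pattern was most like that of SLC6A15 were ranked by the root mean square difference of centred log2 CPM over the 6 libraries, among the 14889 genes whose CPM averaged 1 or more. The 5 nearest were C6orf99 (0.177), CACNA2D1 (0.261), PTGS2 (0.264), FLRT3 (0.395) and SUN3 (0.417). C6orf99 had 986.3 and 1240 normalized counts in the control, 84.5 and 108.9 in Cl1, and 37.3 and 58.6 in Cl10, close to the values of SLC6A15 itself. PTGS2, the inducible cyclooxygenase, had 888.2 and 521.4, 88.8 and 69.1, and 27.5 and 45.5 in the same order, and FLRT3 was at 0 in both Cl1 libraries. CACNA2D1 had 528.7 and 366.6 in the control, 40.1 and 23.4 in Cl1, and only 0.98 and 2.39 in Cl10. Its fitted log2 fold change in Cl10 was -8.0, against -4.44 for SLC6A15. The pseudocount added to CPM in the ranking narrows differences between such low values. None of the 5 lies on chromosome 12. With a pseudocount of 1 in place of 0.5, 4 of the 5 stayed among the nearest, and CYP27B1, which does lie on chromosome 12, took the place of FLRT3. Of the other carriers SLC7A11 came closest, at rank 48 with a difference of 0.909.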

How the data were processed

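Poly(A)-selected, paired-end libraries of 6 A253 samples were analysed. Alignment by the authors used HISAT2 and hg38, and HTSeq gave the deposited raw counts per gene, which are not normalized. The submitters' processing notes also name StringTie and DESeq. The labels name a stranded kit and the methods a TruSeq kit. Annotation, strand setting and rule for reads matching several genes are not given in the sources used here. Another 4 libraries, from a SOX2 experiment, were not used here.

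Each comparison was fitted with only its own libraries in edgeR 4.0.16 (R 4.3.3), with filterByExpr, TMM, glmQLFit and glmQLFTest over all genes and Benjamini-Hochberg adjustment. Genes passed at an adjusted p under 0.05 and were called when the absolute log2 fold change was also above 1. Standard errors derive from the F statistic. Simulated counts held 200 genes with a mean CPM above 1 that were changed by more than the fold change limit. All 200 were recovered in each comparison, with 1, 5 and 3 false calls in Cl1, in Cl10 and between the clones. Changes as small as those of most carriers were not simulated. DESeq2 1.42.0, other scalings, filters and designs were alternatives. With 2 libraries against 2, an exact permutation test of a single gene cannot reach 0.05, so none was made. Positions come from GENCODE v44, where 58207 identifiers matched. The floor of 3 counts covers counting error only.

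Members and gene lists were chosen with earlier results of these data known. Of each list, the text names genes called in 1 direction in both clones and, where fewer than 3, those that passed the same way with the largest smaller change, up to 4, beside the members, DUSP1, SLC7A11-AS1 and the 5 genes most like SLC6A15.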

Additional observations from a re-analysis of the deposited data

Results flagged for a closer look

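The effect in Cl10 differed from that in Cl1 for 8 of the 9 tested carriers, by the direct comparison of the clones with edgeR (Benjamini-Hochberg adjusted p over all genes, 2 libraries each). The log2 difference of Cl10 from Cl1 was -1.06 for SLC6A15 (adjusted p = 0.0147), -0.248 for SLC7A5 (0.00602), -0.304 for SLC38A1 (0.00153) and -0.19 for SLC38A2 (0.0375). It was 0.218 for SLC3A2 (adjusted p = 0.0106), 0.473 for SLC1A4 (0.000128), 0.377 for SLC1A5 (0.000285) and 0.591 for SLC7A8 (5.65e-06). For each gene the 2 libraries of Cl10 lay on 1 side of both libraries of Cl1, and 49.0% of all genes tested passed in this comparison. The choice of SLC6A15 used clone counts that enter this comparison.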

How the results depend on the processing

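SLC7A11 and SLC1A5 kept direction against the control under all alternatives. With DESeq2, and in 1 fit over the 6 libraries, 4 carriers passed in Cl1 in place of 2. In that 1 fit 4 carriers and 7 synthetases passed between the clones, in place of 8 and 13, and 8 mTORC1 sensing genes passed in Cl1 in place of 4 (7 with library size scaling). With 1 library left out, carriers passing ranged from 2 to 6 in Cl1, 3 to 7 in Cl10 and 3 to 9 between the clones. In Cl1 the ranges were 1 to 11 synthetases, 5 to 11 glutathione genes, 5 to 14 catabolic genes and 1 to 14 mTORC1 sensing genes. In Cl10 they were 8 to 16 further carriers, 7 to 18 synthetases, 7 to 14 glutathione genes, 6 to 18 catabolic genes and 5 to 22 mTORC1 sensing genes, and between the clones 7 to 17 synthetases and 8 to 16 glutathione genes. The causes were not tested.

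Signs turned for small values. With 1 library left out, SLC7A5 in Cl1 ran from -0.242 to 0.0541 and SLC38A1 in Cl10 from -0.198 to 0.125. With the median of the 50 nearest genes subtracted, SLC3A2 and SLC38A1 in Cl10 were -0.439 and 0.206, and between the clones SLC7A11 was -0.0751, SLC3A2 -0.00677 and SLC38A2 0.0101. With 1 library left out, the differences between clones ran from -0.195 to 0.414 for SLC7A11, -0.178 to 0.335 for CHAC1 and -0.351 to 0.475 for ASNS, in each case with the extremes without Cl1 replicate 1 and 2.

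Same-numbered libraries deviated from their group means with correlations of -0.068, -0.018 and 0.010. No large shift shared by replicate number was seen, but these values cannot show whether the libraries were prepared in pairs. With the replicate block 2 carriers passed in Cl1, 4 in Cl10 and 8 between the clones, and SLC7A5 in Cl10 was lost (log2 fold change -0.342). SLC6A14 was below detection at this depth, and 2 libraries per group limit every standard error.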
